A study of Homo sapiens
Mus musculus with 5 samples.

Results

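Transcript levels of 10 Notch pathway genes were examined in xenografts of a human lung adenocarcinoma line, H2030-BrM3, carried by athymic nu/nu mice. The genes were the receptors NOTCH1, NOTCH2 and NOTCH3, the ligands JAG1, JAG2, DLL1 and DLL4, and the targets HES1, HEY1 and NRARP. They were taken by symbol from the 25524 genes of the human table, which is read here as the cancer cells. Their 10 mouse counterparts were taken by the same symbols from the 24628 genes of the mouse table, which is read here as the host. There were 3 brain tumors and 2 orthotopic lung tumors, the lung tumors seeded with 100000 cells injected through the trachea. The sources used here do not say how the brain tumors were seeded, or the age and sex of the mice. Both groups share the line and the host strain, a nude mouse that lacks a normal thymus and has few mature T cells. All tumors come from 1 cell line, the labels do not say whether each came from its own mouse, and p-values therefore measure only the spread between these samples.

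Notch signalling runs between touching cells. A ligand of the Jagged or Delta-like family on the sending cell binds a Notch receptor on the receiving cell, a protease of the ADAM family and then gamma-secretase cut the receptor, and the freed intracellular domain enters the nucleus, where with RBPJ it turns on genes of the HES and HEY families. In blood vessels DLL4 and NOTCH1 are known for restraining the sprouting of endothelial cells, and NOTCH3 is best known from the mural cells that wrap vessels. A tumor xenograft holds ligand and receptor on both the human and the mouse side, so the sequence differences between the species let each side be read separately in the same RNA.

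Levels are in RPKM, a unit corrected for the length of a gene and the size of a library, and whole reads recovered from it give the depth behind each level. Brain tumors held 2445904 to 8419288 human reads, against 6541037 and 3733689 for the lung tumors. Of mouse reads the brain tumors held 2710983 to 8636094, against 231156 in lung tumor 1 and 5295159 in lung tumor 2. Lung tumor 1 stood apart. It had 11897 mouse genes without a read, and among the longest 20% of genes its log2 levels deviated by a median of -0.53 in the human table and -0.82 in the mouse table, against 0.10 to 0.23 in the other libraries of both tables. The lung tumors differed from each other across tested genes with an SD of 1.05 on the log2 scale in the human table and 1.57 in the mouse table, against 0.45 to 0.77 between brain tumors. In the human table lung tumor 2 differed less from brain tumors 1, 2 and 3, with SDs of 0.65, 0.79 and 0.96, than from lung tumor 1. In the mouse table it differed more from them, with SDs of 1.78, 1.88 and 2.02.

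The astrocyte, neuron, oligodendrocyte and alveolar markers fitted the labelled sites on the mouse side. All 6 astrocyte, all 6 neuron and all 5 oligodendrocyte markers were higher in brain tumors at a limma adjusted p under 0.05, and 4 of 5 alveolar markers were lower. A gene was tested only if 2 libraries or more reached an RPKM of 1. Rbfox3 and Mag were at 0 in lung tumor 1 and Mog in lung tumor 2, so these could not be tested without high brain values. The calls of such markers are given as a description. The summed alveolar markers stood at 34.5 to 45.4 RPKM in the brain tumors, against 268 RPKM in lung tumor 1 and 19847 RPKM in lung tumor 2. Other lists were less clear. Of 5 microglia markers 0 were called, with sums of 337, 305 and 68.0 RPKM in the brain tumors, against 287 and 158 RPKM in the lung tumors. Of 3 oligodendrocyte precursor markers 2 were called higher, and 1 was lower at an unadjusted limma p under 0.05. Olig2, an oligodendrocyte precursor marker, was at 0 in both lung tumors and could be tested only through the brain tumors. Of 4 airway markers 1 was called, as lower. Beside these counts, 14.3% of all tested mouse genes were called higher and 8.12% lower. At an unadjusted p under 0.05, 16.6% were lower. On the human side 5 of 6 epithelial markers were readily read in every tumor and KRT19, a keratin of simple epithelia, had 0 to 2 reads. Reads of the species were well kept apart at the astrocyte gene Gfap, which had 18185, 24666 and 30798 mouse reads in the brain tumors beside 0, 1 and 0 reads of human GFAP.

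In the cancer cells no Notch gene passed the test between sites, while NOTCH2 and NOTCH3 stood higher and JAG2 lower in every brain tumor than in either lung tumor. Of the 10 human genes 9 were tested and 0 were called by limma at an adjusted p under 0.05, and voom on the recovered reads also called 0. Of all 14423 tested human genes 0.00693% were called, so that the human comparison as a whole had almost no calls. At an unadjusted p under 0.05, 2 members were higher, against 6.16% of tested genes, and 1 was lower, against 4.36%. The groups did not overlap with brain above lung in 2 members, against 17.4% of tested genes, and with brain below lung in 1, against 12.3%. The median log2 difference of the 9 tested members was -0.06, against 0.09 over all tested genes.

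NOTCH3, a receptor of the family, is encoded on chromosome 19 at chr19:15159038-15200995 of GRCh38.p14, the RefSeq build used for all positions here. It was read 910, 912 and 373 times in the brain tumors, against 477 and 197 times in the lung tumors. Its level was 161, 212 and 227 RPKM in the brain tumors, against 109 and 78.2 RPKM in the lung tumors. All 3 brain tumors lay above both lung tumors, with means of 199.9 ± 34.9 RPKM in brain tumors and 93.5 ± 21.6 RPKM in lung tumors (SD, n = 3 and 2). The log2 difference was 1.09 with an SE of 0.33 and a limma adjusted p of 0.451.

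NOTCH2, a receptor with a wide tissue range, lies at chr1:119911553-120069662. It was at 5.66, 8.88 and 14.4 RPKM in the brain tumors, from 151, 180 and 111 reads, against 0.969 and 3.88 RPKM in the lung tumors, from 20 and 46 reads. Every brain tumor exceeded every lung tumor, and the brain tumors themselves spanned a wide range. The log2 difference was 1.70 (95% interval 0.41 to 2.99), with a limma adjusted p of 0.459. It was 2.35 with an adjusted p of 0.0413 without lung tumor 2, and 1.04 with an adjusted p of 0.608 without lung tumor 1. Human reads made up 75.6%, 56.5% and 22.1% of all reads in the brain tumors, against 96.6% and 41.4% in the lung tumors, and within each site NOTCH2 was higher where that share was lower. With the share as a covariate the log2 difference was 1.29, at an adjusted p of 0.613. The implied length of NOTCH2, 3168 bases, places it among the longest 20% of genes, which were low in lung tumor 1, and with the length trend removed the log2 difference was 1.35. NOTCH2 has near-identical human gene copies, and the sources used here do not say how reads that match several genes were counted, so its level is uncertain.

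NOTCH1, which restrains or drives growth depending on the tissue, lies at chr9:136494433-136546048. It was at 13.2, 12.3 and 13.5 RPKM in the brain tumors, against 9.87 and 21.7 RPKM in the lung tumors. The brain tumors lay between the 2 lung tumors, and the log2 difference was -0.17 with an interval of -1.17 to 0.83. RefSeq annotates an overlapping lncRNA gene, and since the strand of counting is not stated, reads of that gene and of NOTCH1 cannot be told apart.

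Among the ligands JAG2, a membrane ligand of the Jagged family at chr14:105140995-105168776, was the member with the lowest p in the human table. It was at 43.3, 35.7 and 37.4 RPKM in the brain tumors, from 851, 534 and 213 reads. In the lung tumors it was at 79.7 and 104.8 RPKM, from 1212 and 915 reads. All 3 brain tumors were below both lung tumors, with means of 38.8 ± 3.97 RPKM in brain tumors and 92.2 ± 17.7 RPKM in lung tumors (SD, n = 3 and 2). The log2 difference was -1.22 with an SE of 0.32 and a limma adjusted p of 0.404, and it ran from -1.47 to -1.02 over the 16 other settings tried. The implied length of JAG2, 2334 bases, places it too among the longest 20% of genes. With the length trend removed its log2 difference was -1.47.

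JAG1, the other Jagged ligand, at chr20:10637684-10673999, was at 10.6, 13.3 and 8.46 RPKM in the brain tumors, against 11.9 and 53.4 RPKM in the lung tumors. Lung tumor 2 was the single high library, with lung tumor 1 inside the brain range. The log2 difference of -1.19 (SE 0.60, limma adjusted p 0.497) was -0.15 without lung tumor 2 and -2.23 without lung tumor 1.

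DLL4, a Delta-like ligand at chr15:40929340-40939073, was at 7.32, 8.15 and 1.67 RPKM in the brain tumors, against 4.68 and 5.43 RPKM in the lung tumors. Brain tumor 3, with 6 reads, was the low one and the other brain tumors were above both lung tumors. DLL1, a Delta-like ligand at chr6:170282206-170291078, had 1, 4 and 0 reads in the brain tumors, against 4 and 2 reads in lung tumors, which was too low to be tested. Its count of 0 in brain tumor 3 allows up to 0.642 RPKM. RefSeq annotates an overlap with the protein-coding gene FAM120B. As the strand of counting is not stated, reads of FAM120B and of DLL1 cannot be told apart there.

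No target passed the test between sites. HES1, a transcriptional repressor at chr3:194136148-194138732, was at 22.6, 20.4 and 25.7 RPKM in the brain tumors, against 31.6 and 14.3 RPKM in the lung tumors. The brain tumors lay inside the range of the lung tumors, and the log2 difference was 0.09 (95% interval -0.88 to 1.06, limma adjusted p 0.946). HEY1, a related repressor at chr8:79764010-79767767, was at 4.77, 3.65 and 2.68 RPKM in the brain tumors, against 3.87 and 3.75 RPKM in the lung tumors. NRARP, a short ankyrin repeat protein that dampens the pathway, at chr9:137299631-137302271, was at 2.68, 1.55 and 2.94 RPKM in the brain tumors, against 2.96 and 2.80 RPKM in the lung tumors. Both overlapped between sites, and the 95% intervals of their log2 differences were -1.04 to 0.93 for HEY1 and -1.21 to 0.77 for NRARP.

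**Figure D1:**
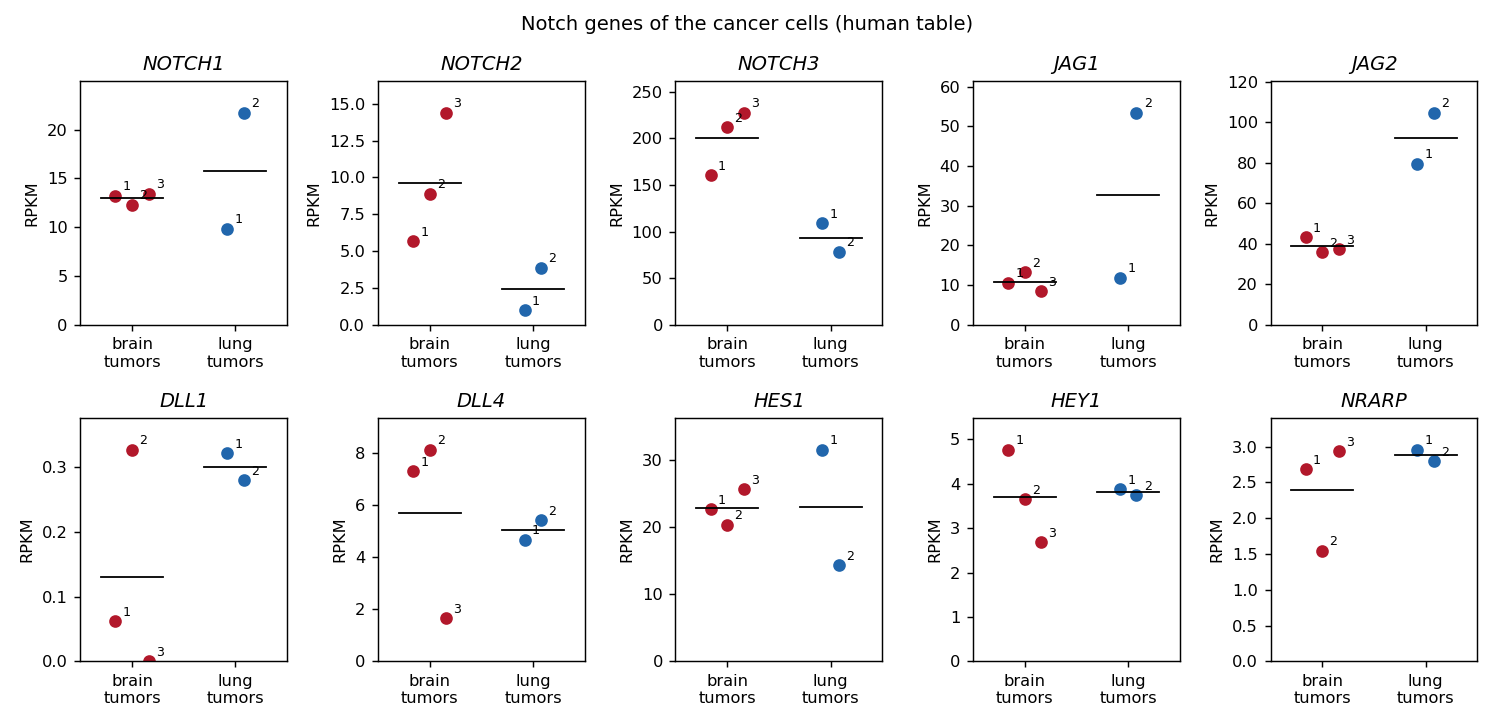
RPKM of the 10 human Notch genes in each tumor, 1 panel a gene, with brain tumors left of lung tumors, numbered points for the libraries and a line at each group's mean. NOTCH2 and NOTCH3 lie higher in all 3 brain tumors, JAG2 lies lower in all 3, and the other genes overlap.

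In the host the endothelial ligand Dll4 fell in brain tumors and was the only one of the 10 Notch genes called. All 10 mouse genes were tested and limma called 1, against 22.4% of all 15431 tested mouse genes, 14.3% in the higher and 8.12% in the lower direction. At an unadjusted p under 0.05 there were 4 lower members, Dll4, Jag1, Notch2 and Hes1, and 0 higher, against 16.6% lower and 21.9% higher of all tested genes. The groups did not overlap with brain below lung in 5 members, against 26.2% of tested genes, and with brain above lung in 0, against 30% of tested genes. The median log2 difference was -0.90, against 0.08 over all tested genes.

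Dll4 was at 8.61, 4.04 and 4.34 RPKM in the brain tumors, from 53, 45 and 85 reads. In the lung tumors it was at 20.9 and 35.9 RPKM, from 11 and 431 reads. The highest brain tumor stayed well below the lower lung tumor, with means of 5.66 ± 2.56 RPKM in brain tumors and 28.4 ± 10.6 RPKM in lung tumors (SD, n = 3 and 2). The log2 difference was -2.16 (95% interval -3.34 to -0.98), with a limma adjusted p of 0.0273. Without lung tumor 1 it was -2.53 with an adjusted p of 0.0109, and without lung tumor 2 it was -1.78 with an adjusted p of 0.0229. The call was lost without brain tumor 1, 2 or 3, at adjusted p-values of 0.0568, 0.119 and 0.106, and it held in 10 of 16 other settings. The count of called host members was 7 without lung tumor 1, all lower, where 31% of all tested mouse genes were called and 14% were lower. It was 6 without lung tumor 2, where 55% of all were called, 35% higher and 20% lower. Of those 6, Dll4 and Notch2 were lower and Notch1, Jag2, Dll1 and Hey1 higher. Lung tumor 1 held 9, 1, 0 and 4 reads of Notch1, Jag2, Dll1 and Hey1.

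Endothelial markers were compared with Dll4. The sum of 7 of 7 markers was 279, 204 and 132 RPKM in the brain tumors, against 321 and 1823 RPKM in the lung tumors, with none at 0. Of the 7 markers 1 was called lower, against 8.12% of all tested mouse genes. This was Esam, a junction protein of endothelium, which fell by 2.16 on the log2 scale with a limma adjusted p of 0.0250. In 3 of 7 every brain tumor was below both lung tumors, against 26.2% of tested genes. The median log2 difference over the 7 was -2.0. Per 100 RPKM of that sum, Dll4 stood at 3.09, 1.98 and 3.30 in the brain tumors, against 6.51 and 1.97 in the lung tumors. Lung tumor 2 thus lay next to the lowest brain tumor and only lung tumor 1, with 11 reads of Dll4, lay above all 3. In bulk RNA, fewer endothelial cells and less Dll4 per cell cannot be told apart.

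Mouse Notch1, the main receptor of Dll4 in vessels, was at 215, 198 and 192 RPKM in the brain tumors, against 93.4 and 493 RPKM in the lung tumors. The lung values lay on either side of the brain tumors, and 9 reads stand behind the lower one. Its log2 difference of -0.09 (limma adjusted p 0.931) was -1.29 without lung tumor 1 and 1.10 without lung tumor 2, at adjusted p-values of 0.00831 and 0.00865, so that its direction rests on the lung library used.

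Notch2 was at 11, 9.28 and 8.08 RPKM in the brain tumors, against 19.7 and 25.1 RPKM in the lung tumors. All brain tumors were below, and the log2 difference of -1.16 had an SE of 0.36 and a limma adjusted p of 0.0658. Notch3 was at 8.92, 7.42 and 5.40 RPKM in the brain tumors, against 9.43 and 25.3 RPKM in the lung tumors, a log2 difference of -1.03 with an adjusted p of 0.204. For Notch3 the lower lung tumor was close to the highest brain tumor. Lung tumor 1 held 29 reads of Notch2 and 18 of Notch3. Their implied lengths, 6343 and 8232 bases, place both among the longest 20% of mouse genes, which were low in lung tumor 1. With the length trend removed the log2 differences were -1.87 and -1.84, at limma adjusted p-values of 0.0207 and 0.0198. In that setting 24.5% of all tested mouse genes were called. The 7 mural markers summed to 240, 191 and 111 RPKM in the brain tumors, against 1264 and 355 RPKM in the lung tumors, with none at 0. Limma called 3 of the 7 mural markers lower, against 8.12% of all tested mouse genes. Their part in the level of Notch3 was not tested.

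Among the other host ligands Jag1 was at 6.62, 6.25 and 3.01 RPKM in the brain tumors, against 13.1 and 23.6 RPKM in the lung tumors. Both lung tumors were above the brain tumors, the lower from 11 reads, with a log2 difference of -1.62 (SE 0.50, limma adjusted p 0.0655). Jag1, at 3620 bases, is also among the longest 20% of genes. With the length trend removed its log2 difference was -2.12, at a limma adjusted p of 0.0174. Jag2 was at 9.60, 10.6 and 7.35 RPKM in the brain tumors, against 1.04 and 14.8 RPKM in the lung tumors, the lower from 1 read. Jag2, at 4149 bases, is a long gene too, and its log2 difference of 0.83 was 0.28 with the length trend removed. Dll1 was at 7.33, 12.1 and 11.7 RPKM in the brain tumors, against 0 and 38.1 RPKM in the lung tumors. The 0 of lung tumor 1 allows up to 17.2 RPKM, more than any brain tumor held, so the depth of that library cannot show whether Dll1 differed there.

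Of the host targets Hes1 was at 31.3, 33.5 and 20.1 RPKM in the brain tumors, against 55.7 and 119.8 RPKM in the lung tumors. The groups did not overlap, with 7 reads behind the lower lung value, and the log2 difference was -1.53 (SE 0.45, limma adjusted p 0.0583). Hey1 was at 73.5, 67.2 and 61.7 RPKM in the brain tumors, against 17.9 and 87.1 RPKM in the lung tumors, with 4 reads behind the lowest. Nrarp was at 15.4, 9.17 and 3.38 RPKM in the brain tumors, against 11.4 and 18.0 RPKM in the lung tumors. Both overlapped between the sites.

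**Figure D2:**
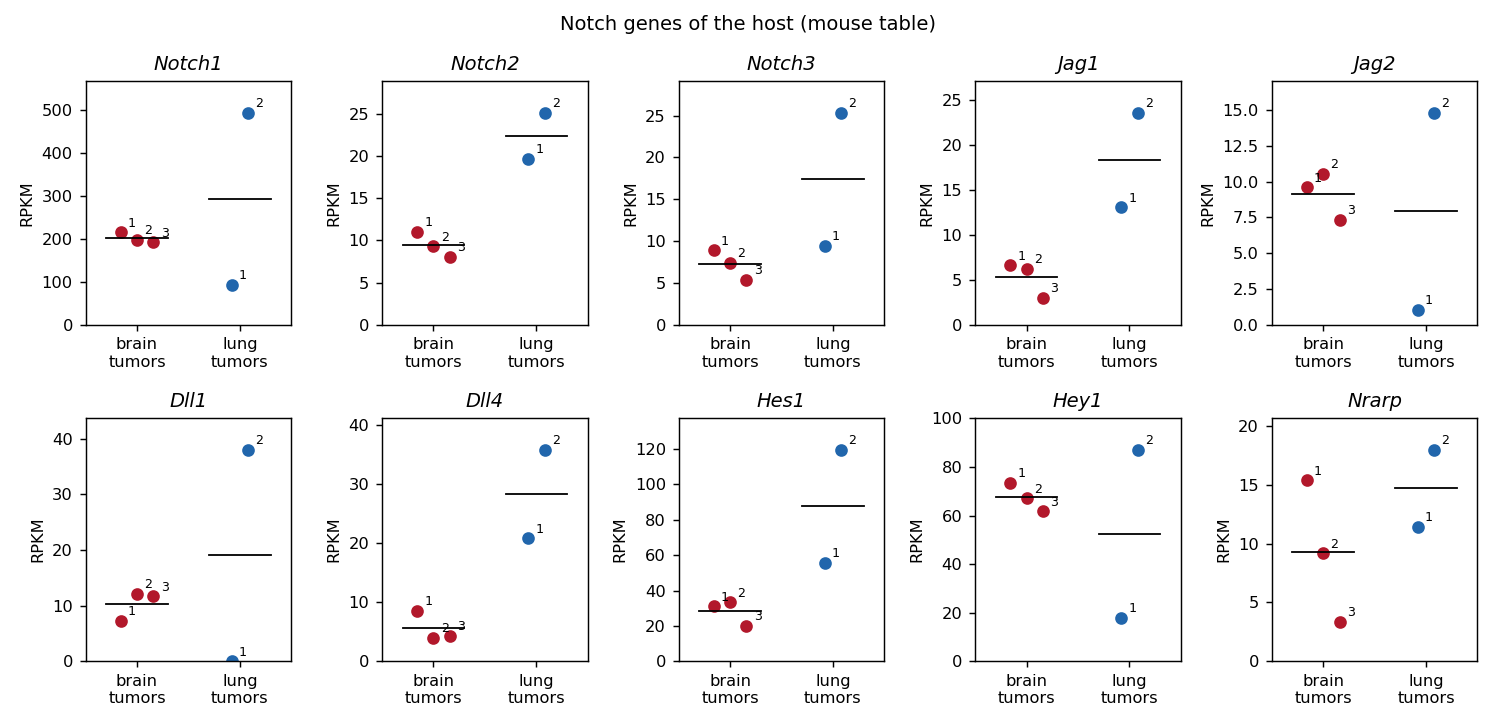
RPKM of the 10 mouse Notch genes in each tumor, 1 panel a gene, with brain tumors left of lung tumors, numbered points for the libraries and a line at each group's mean. Dll4, Jag1, Notch2, Notch3 and Hes1 lie lower in all 3 brain tumors than in both lung tumors, and only Dll4 passed the test.

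The cancer-cell and the host effect of the same symbol were set against each other in 1 model of the log2 human minus log2 mouse level within each tumor, over 12434 pairs of genes. NOTCH2 and NOTCH3 had a higher brain-over-lung difference in the cancer cells than in the host. Limma called these 2 of the 10 members, both in the higher direction, against 19.9% of all pairs in either direction and 8.46% in the higher one and 11.4% in the lower one.

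For NOTCH2 the human minus mouse log2 level was -0.85, -0.06 and 0.76 in the brain tumors, against -3.40 and -2.42 in the lung tumors. All brain tumors were above both lung tumors. The difference of the effects was 2.86 (95% interval 1.33 to 4.38) with a limma adjusted p of 0.0238. Without brain tumor 2 or brain tumor 3 the adjusted p was 0.0905 and 0.0834, and without lung tumor 1 it was 0.0499.

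For NOTCH3 the human minus mouse log2 level was 4.03, 4.66 and 5.16 in the brain tumors, against 3.40 and 1.59 in the lung tumors. The difference of the effects was 2.12 (95% interval 0.69 to 3.55) with a limma adjusted p of 0.0498. It was not called without brain tumor 1, brain tumor 2, brain tumor 3 or lung tumor 2, at adjusted p-values of 0.0720, 0.134, 0.169 and 0.0893. Without lung tumor 1 it was 3.02 with an adjusted p of 0.00686, and without lung tumor 2 it was 1.22. Over 15 other settings it was called in 4, and with median-ratio scaling it was 1.83 at an adjusted p of 0.0845.

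For the ligands the pattern varied. DLL4 had a difference of effects of 2.12 with an SE of 0.66 and a limma adjusted p of 0.0667. JAG2 had one of -2.05 with an SE of 0.74 and an adjusted p of 0.0966, the reverse sign. The differences of JAG1, 0.43, and DLL1, -1.05, were smaller than 2 of their SEs. Of the targets HES1 had a difference of 1.62 (adjusted p 0.138), HEY1 one of -0.80 and NRARP one of 0.55.

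**Figure D3:**
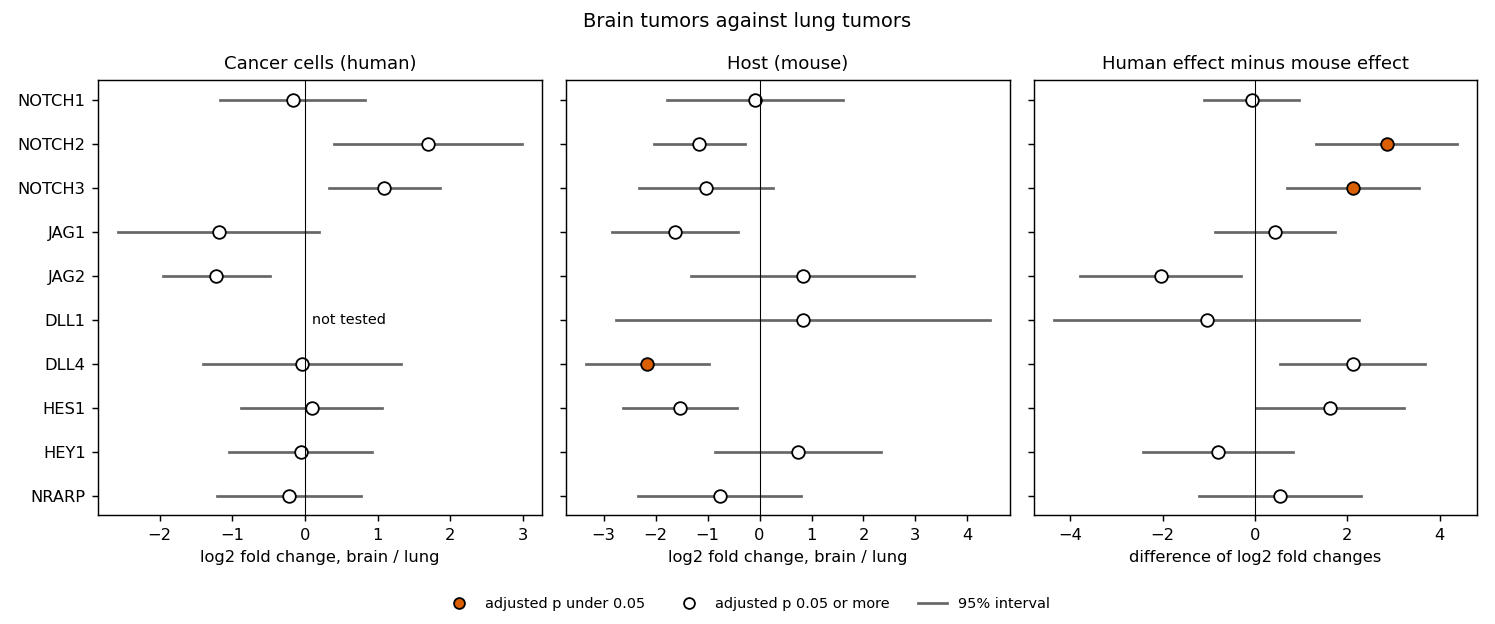
Log2 brain minus lung difference of each Notch gene in the human and in the mouse table, and the human minus mouse difference of effects, as points with 95% intervals from limma. Filled points passed the adjusted test, mouse Dll4 and the differences of NOTCH2 and NOTCH3; the intervals are not adjusted, and DLL1 was not tested in the human table.

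RPKM of a human gene and its mouse counterpart cannot be compared directly, since the gene lengths implied by the values differ widely between the tables, as with 673 bases for human NOTCH3 and 8232 for mouse Notch3. These lengths are approximate, since they come from the recovered reads of a gene and of the library, and both are lower bounds. The length correction goes by these lengths, so it treats human NOTCH3 as a short gene. Recovered reads were used instead to see how each gene's reads divided between cancer and host, with the limit that the counted part of each gene may differ in length. JAG2 was the only member whose human share exceeded that of all reads in every tumor. It was 88.7%, 71.3% and 44.7% human in the brain tumors, with 95% Wilson intervals of 86.6 to 90.6%, 68.0 to 74.4% and 40.3 to 49.2%. In the lung tumors it was 99.9% and 73.8% human, with intervals of 99.5 to 99.99% and 71.3 to 76.2%.

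HEY1 was among the members with low human shares in brain tumors, with 18.3%, 7.29% and 1.35% human reads in the brain tumors and 95% Wilson intervals of 13.9 to 23.7%, 4.98 to 10.5% and 0.654 to 2.75%. In the lung tumors it was 87.1% and 3.27% human, with intervals of 71.1 to 94.9% and 1.99 to 5.32%. In each tumor its share was below that of all reads. NOTCH3 was 82.1%, 75.2% and 49.3% human in the brain tumors, with intervals of 79.7 to 84.2%, 72.7 to 77.6% and 45.8 to 52.9%. In the lung tumors it was 96.4% and 15.2% human, with intervals of 94.3 to 97.7% and 13.3 to 17.2%. Intervals and floors cover counting error only.

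The levels of ligands and receptors that could meet between the sides stood as follows. RPKM cannot be compared between genes, and between tumors it is limited by the low reading of long genes in lung tumor 1. It is scaled within each species, so it does not give the amount of host transcript beside the cancer cells. In brain tumors the cancer cells held JAG2 at 35.7 to 43.3 RPKM beside host Notch1 at 192 to 215 RPKM, and cancer NOTCH3 at 161 to 227 RPKM beside host Jag1 at 3.01 to 6.62 RPKM and host Dll4 at 4.04 to 8.61 RPKM. In lung tumors cancer JAG2 stood at 79.7 and 104.8 RPKM beside host Notch1 at 93.4 and 493 RPKM. Cancer NOTCH3 was there at 109 and 78.2 RPKM, beside host Jag1 at 13.1 and 23.6 RPKM and host Dll4 at 20.9 and 35.9 RPKM. Cancer NOTCH3 thus stood higher in the brain tumors, at a limma adjusted p of 0.451. The host ligands Jag1 and Dll4 stood lower there, of which only Dll4 passed the test. Host Jag2 and Dll1 overlapped between the sites, with log2 differences of 0.83 and 0.83. These are transcript levels, and contact or binding was not measured.

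**Figure D4:**
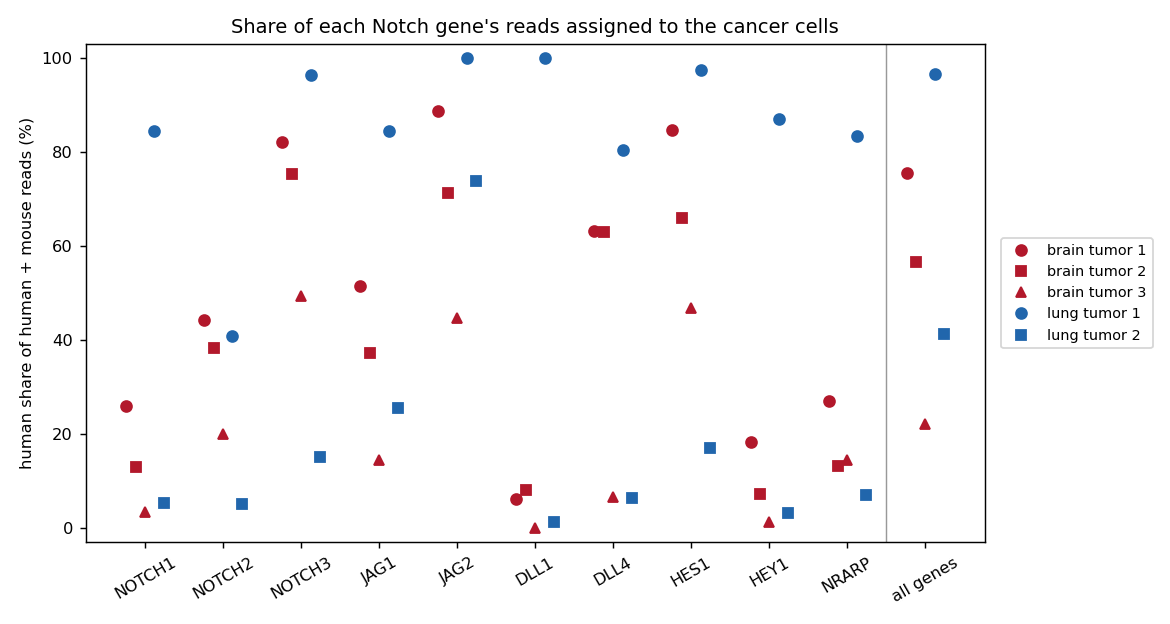
Percent of each Notch gene's reads that were human in each tumor, beside the share of all reads, with brain tumors left of lung tumors. JAG2 lies above the share of all reads in every tumor, and NOTCH1, NOTCH2, JAG1, HEY1 and NRARP lie below it in every tumor.

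The other genes of the pathway, 50 in 7 lists, held no call in the cancer cells. Of these the human side held 46 with 43 tested, of which limma called 0. Without lung tumor 2 it called 12, where 15.6% of all human genes were called. At an unadjusted p under 0.05 there were 6 higher and 4 lower, against 6.16% and 4.36% of all tested genes. The median log2 difference was 0.17, against 0.09 over all tested genes. Among the nuclear complex, 4 of 9 tested genes were higher at an unadjusted p under 0.05, against 6.16% of all, and 0 lower. The list summed to 1172, 1357 and 1650 RPKM in the brain tumors, against 479 RPKM in lung tumor 1 and 1077 RPKM in lung tumor 2. Both lung sums were below every brain sum, and the lowest was that of lung tumor 1, the library in which long genes read low. The part of gene length in these sums was not tested. The acetyltransferase genes EP300 and CREBBP had the lowest p there, with log2 differences of 1.97 and 1.39 and limma adjusted p-values of 0.469 and 0.459. EP300 was at 213, 268 and 521 RPKM in the brain tumors, against 32.0 and 190.1 RPKM in the lung tumors.

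Among 8 other targets tested, 3 were lower at an unadjusted p under 0.05, against 4.36% of all, and 0 higher. HES6, a relative of HES1 that opposes it, was at 8.47, 4.95 and 4.34 RPKM in the brain tumors, against 29.6 and 18.4 RPKM in the lung tumors. HES4 was at 9.92, 11 and 21.5 RPKM in the brain tumors, against 113 and 27.2 RPKM in the lung tumors. Their limma adjusted p-values were 0.349 and 0.454. Of the receptor glycosylation genes POFUT1, which adds fucose to Notch, had a log2 difference of 0.99 and RFNG one of -0.67. Of the ligand uptake genes MIB1, a ubiquitin ligase that lets the ligand pull on the receptor, had one of 1.19 and MIB2 one of -1.0.

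The remaining human lists were quieter. Of the receptor cleavage genes 0 of 9 passed an unadjusted p under 0.05, the lowest p belonging to the gamma-secretase subunits NCSTN, at a log2 difference of 0.99, and PSENEN, at -0.57. Of the 8 tested inhibitors and turnover genes 0 did, with NUMBL at 0.70 and NUMB at 0.60. Of 2 tested other receptors and ligands 0 did, with DLL3 at -1.07 and DLK2 at -0.44.

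In the host 48 of the 50 were found and 46 tested, and limma called 5 higher and 1 lower, 13.0% of the tested genes against the 22.4% of all tested genes. The 6 calls were 3 without brain tumor 1, 2 or 3, where 10.9%, 8.3% and 9.08% of all tested mouse genes were called. They were 11 without lung tumor 1 and 24 without lung tumor 2, where 31% and 55% of all were called. The 5 higher were Dlk1, Dlk2, Dtx1, Fbxw7 and Hes5. Of these Dlk1, Dlk2, Dtx1 and Hes5 passed the filter on low values only through the brain tumors, where they had to be high to be tested at all, so their calls are given as a description. Dtx1, an E3 ligase that modulates Notch, was at 74.7, 60.0 and 96.2 RPKM in the brain tumors, against 0 and 4.24 RPKM in the lung tumors, where the 0 allows up to 9.39 RPKM. Fbxw7, which marks the freed receptor domain for breakdown, was at 23.0, 31.8 and 33.6 RPKM in the brain tumors, against 4.14 and 9.26 RPKM in the lung tumors. Its log2 difference was 2.05 with an SE of 0.44 and an adjusted p of 0.0243.

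Dlk1 and Dlk2, Delta-like proteins that lack the DSL domain of the usual ligands, had few or no reads in the lung tumors. Dlk1 was at 69.5, 18.7 and 26.2 RPKM in the brain tumors, against 0 and 0.286 RPKM in the lung tumors, and Dlk2 at 10.4, 9.77 and 5.64 RPKM in the brain tumors, against 0 and 0.363 RPKM in the lung tumors. The zeros of lung tumor 1 allow up to 9.82 RPKM of Dlk1 and 8.30 RPKM of Dlk2, the second above the level in brain tumor 3. Hes5, a target in neural precursors, had 12, 13 and 10 reads in the brain tumors and 0 in either lung tumor, and the floor of lung tumor 1, 31.3 RPKM, lies above all its brain levels.

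The 1 lower gene was Furin, the convertase that matures the receptor, at 20.6, 19.6 and 23.6 RPKM in the brain tumors, against 55.8 and 59.7 RPKM in the lung tumors (log2 difference -1.41, SE 0.29, limma adjusted p 0.0216). The neural markers above moved with the 5 higher genes, and their part in these levels was not tested. In the lists with 0 calls, the genes of lowest p were Mfng, at -1.62, and Rfng, at 0.80, Mib1, at 1.17, and Mib2, at 1.38, and Rbpj, at -1.09, and Spen, at 1.51, all log2 differences with adjusted p-values of 0.0857 to 0.219. The endothelial receptor Notch4 was at 64.6, 55.9 and 17.8 RPKM in the brain tumors, against 46.8 and 256 RPKM in the lung tumors.

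**Figure D5:**
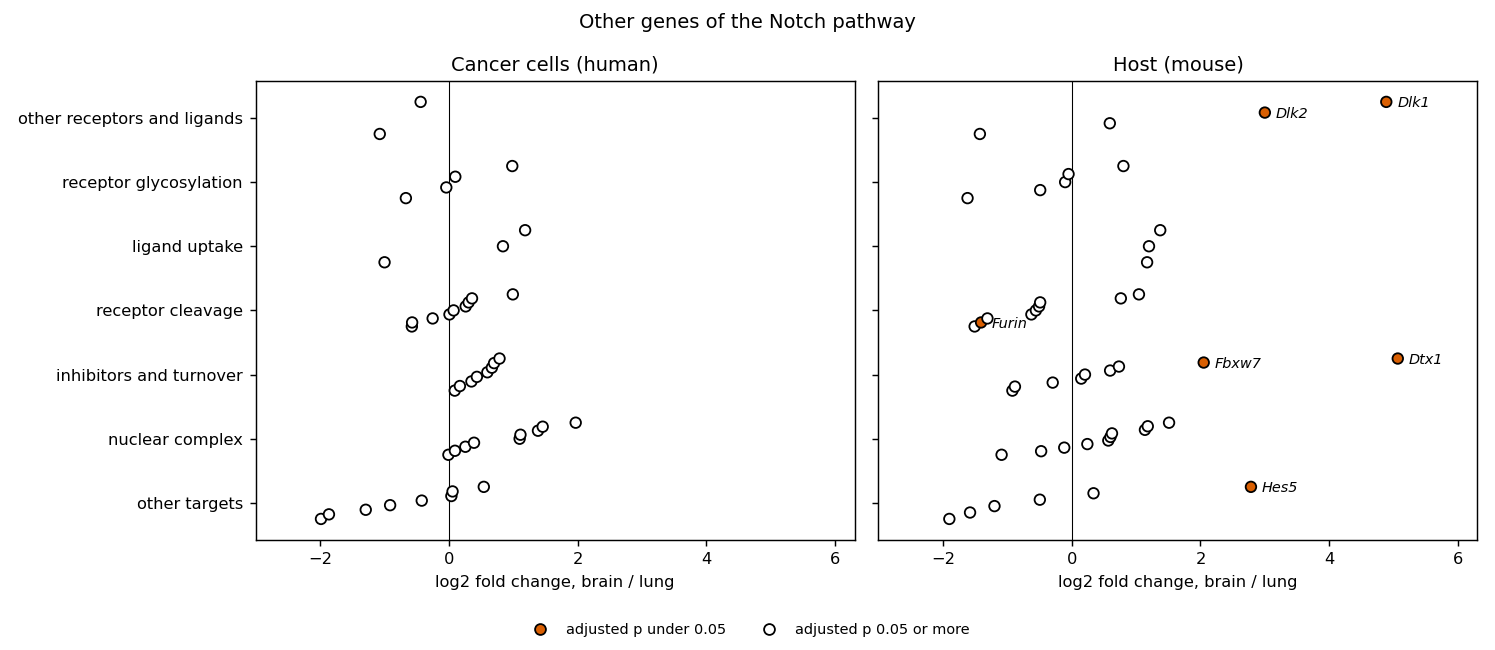
Log2 brain minus lung difference of every tested gene in the 7 other Notch pathway lists, human and mouse, 1 point a gene, with called genes filled. No human gene was called, and 6 mouse genes were, 5 of them higher; the points of Dlk1, Dlk2, Dtx1 and Hes5 rest on lung libraries at 0 and depend on the pseudocount.

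The genes whose profile over the 5 tumors was most like that of the member with the largest change were found by the root mean square difference of centred log2 levels. For human NOTCH2 these were PHACTR2 at 0.113, UTRN at 0.136 and TNS3 at 0.155, out of 14423 genes. PHACTR2, picked for its likeness to NOTCH2 over these tumors, was at 10.8, 16.9 and 23.2 RPKM in the brain tumors, against 1.89 and 6.91 RPKM in the lung tumors. For mouse Dll4 they were Creb3l1 at 0.0900, Hoxb2 at 0.125 and Pparg at 0.135, out of 15431 genes. Creb3l1 was at 4.98, 2.37 and 2.18 RPKM in the brain tumors, against 14.6 and 22.2 RPKM in the lung tumors. Hoxb2 was at only 0.908, 0 and 0.333 RPKM in the brain tumors, so its profile depends on the pseudocount.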

How the data were processed

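RNA sequencing of 3 brain and 2 lung tumors was analysed from the deposited RPKM tables, 1 human and 1 mouse. Per the submitters' processing notes the builds were GRCh38 (hg38) and GRCm38 (mm10). Aligner, counting tool, strand, gene lengths and the rule for species: not given in the sources used here. Columns were joined to samples by the labels, and 0 per-sample columns were left unmapped. Within a table, deposited RPKM of a gene stand in whole-number ratios, so whole reads were recovered for 25524 of 25524 human and 24628 of 24628 mouse genes (tolerance 1e-06 reads), and after a wrong factor on 1 library for 8.5% and 11.65%. A common divisor of all counts of a gene cannot be seen, which makes recovered counts lower bounds.

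A gene entered the test if 2 libraries or more reached an RPKM of 1. Limma 3.58.1 (R 4.3.3, eBayes with a trend) was run on log2(RPKM + 1), brain minus lung, with Benjamini-Hochberg adjustment over each table and a threshold of 0.05; folds of low genes are understated. An exact permutation test of 3 against 2 cannot give a two-sided p below 0.2 and was not used. Scaling was left as deposited. Members and lists were chosen with earlier results of these data known. The text names all members, called pathway genes and, in lists with 0 called, the 2 with the lowest p. A count of 0 is bounded by 3 reads. Human positions come from RefSeq GRCh38.p14, matched by symbol for 10 of 10 genes.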

Additional observations from a re-analysis of the deposited data

Results flagged for a closer look

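NOTCH2 and NOTCH3 drew attention because the difference between brain and lung tumors itself differed between the cancer cells and the host. In the limma fit of human minus mouse levels the difference of effects was 2.86 on the log2 scale for NOTCH2, at an adjusted p of 0.0238, and 2.12 for NOTCH3, at an adjusted p of 0.0498. For each gene 3 of 3 brain tumors lay above 2 of 2 lung tumors in the human minus mouse level. Among all pairs tested 19.9% were called in either direction and 8.46% in this one, so 2 of 10 members is close to the share of all pairs in either direction.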

How the results depend on the processing

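Among the alternative values of single members, 381 kept their direction and side of the threshold, 25 passed the threshold only under the alternative, 20 no longer passed it and 28 turned sign, of which 2 are among the 25. Human members called numbered 0 in all settings but 1 without lung tumor 2 (NOTCH2), so leaving out a library gave 0 to 1, while 15.6% of all human genes were called without lung tumor 2. The mouse count of 1 became 0 with no filter and with human read share as a covariate, 4 with quantile normalization, voom or the length correction, and 0 to 7 when a library was left out (0 without any brain tumor, 7 without lung tumor 1, 6 without lung tumor 2). Calls over all mouse genes moved too, at 22.4% as reported, 9.32% with no filter, 18.6% with the covariate, 24.5 to 27.4% with quantile normalization, voom or the length correction, 8.3 to 10.9% without a brain tumor, 31% without lung tumor 1 and 55% without lung tumor 2. The 2 differences of effects became 1 with a pseudocount of 0.1 or 0.5, no filter, median-ratio scaling, no trend or the covariate, and 0 to 4 when a library was left out (1, 0 and 0 without brain tumor 1, 2 and 3, 4 without lung tumor 2). Of all pairs 7.8 to 10.5% were called without a brain tumor and 37.2% without lung tumor 2. Voom was not run for the difference. Without 1 lung tumor, the spread of the remaining one is taken from the brain tumors.

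The replicate numbers are shared by 2 brain and 2 lung tumors, but the labels do not pair them, and deviations of same-numbered tumors correlated at -0.08 and 0.06 in human and 0.03 and 0.05 in mouse genes. The replicate block, which takes nothing from brain tumor 3, called 0 members in the human table, 0 in the mouse table and 0 differences; adjusted p-values were 0.147 for mouse Dll4, 0.0755 for the NOTCH2 difference and 0.111 for the NOTCH3 difference.

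Signs turned as follows. In the human table HES1 was -0.050 under median-ratio scaling, -0.019 under quantile normalization and -0.45 to 0.64 when a library was left out. HEY1 was 0.11 with the replicate block, 0.051 with the covariate and -0.22 to 0.11 when a library was left out. DLL4 was 0.53 with the replicate block, 0.10 with voom, 0.22 with the covariate and -0.36 to 0.53 when a library was left out, and NOTCH1 was then -0.70 to 0.36. In the mouse table Notch1 was 0.064 under median-ratio scaling, 0.027 with the length correction and -1.29 to 1.10 when a library was left out. Dll1 was -1.24 with voom, -0.10 with the covariate and -1.81 to 3.48 when a library was left out, Hey1 was then -0.37 to 1.85, and Jag2 was -0.21 with voom and then -0.65 to 2.30. Of the differences of effects NRARP was -0.089 with the replicate block and NOTCH1 0.11 with the covariate, and when a library was left out NRARP was -0.089 to 0.91, JAG1 -0.20 to 1.07, DLL1 -3.72 to 1.62, HEY1 -1.93 to 0.33 and NOTCH1 -0.74 to 0.59. The cause was not tested. Median-ratio scaling moved the median of all mouse genes to 0.22, against 0.08 as deposited, and that of all human genes to -0.03, against 0.09.

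Over the alternatives the log2 difference of mouse Dll4 ran from -2.68 to -1.78 and it was called in 10 of 16, the NOTCH2 difference ran from 2.37 to 3.37 and was called in 12 of 15, and the NOTCH3 difference ran from 1.22 to 3.02 and was called in 4 of 15. Mouse genes in lung tumor 1 rest on few reads, which limits every host comparison.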
